A study of Mus musculus with 2 samples.

Results

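GABAergic amacrine nuclei of the mouse retina, other than those of starburst cells, were taken by their UMI counts from 1 spatial single-nucleus library. UMIs are counts of single captured RNA molecules. A nucleus was taken when it had at least 200 detected genes, under 10% mitochondrial UMIs, at least 4 UMIs of Gad1 and Gad2 together, and at most 1 UMI each of Slc6a9, of the cholinergic genes Chat, Slc5a7 and Slc18a3 together, of Slc17a6, and of Onecut1 and Lhx1 together. The choice gave 621 of 16867 kept nuclei, or 3.68% (95% interval 3.40 to 3.98%). Per the labels, the C57BL/6J tissue was untreated and came from 1 section of 10 micrometres of 1 eye, and SeekSpace gave each nucleus an expression profile and a point on a chip. The study set mice heterozygous for a Prph2 allele against wild types at 6 months, but its design text leaves the library without a genotype. No genotype comparison was made for that reason. With 1 library there is no replicate, no test was run, and every interval covers counting error only.

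Amacrine cells are the inhibitory interneurons of the inner retina. They receive input from bipolar cells in the inner plexiform layer and act on bipolar cells, ganglion cells and each other. GABAergic types make GABA from glutamate with the enzymes encoded by Gad1 and Gad2, load it into vesicles with the transporter encoded by Slc32a1, and often spread wide arbors. Glycinergic types take up glycine with the transporter encoded by Slc6a9. Starburst cells release acetylcholine as well as GABA and serve direction selectivity. Amacrine cell bodies lie at the inner edge of the inner nuclear layer, and displaced ones lie among the ganglion cells.

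The promoters of Pax6, the transcription factor that all amacrine cells share, and Meis2, a homeodomain factor, are shown because these factors describe the nuclei below and Tfap2a and Tfap2b were expressed beside them. Sequences are RefSeq windows of 250 bases before to 50 after the start, in the build GRCm38.p6, and capitals mark the motif GCCNNNGGC, which transcription factors of the TFAP2 family bind. The motif reads the same on both strands, and no other motif was searched.
Pax6 promoter, chr2:105668646-105668945, + strand: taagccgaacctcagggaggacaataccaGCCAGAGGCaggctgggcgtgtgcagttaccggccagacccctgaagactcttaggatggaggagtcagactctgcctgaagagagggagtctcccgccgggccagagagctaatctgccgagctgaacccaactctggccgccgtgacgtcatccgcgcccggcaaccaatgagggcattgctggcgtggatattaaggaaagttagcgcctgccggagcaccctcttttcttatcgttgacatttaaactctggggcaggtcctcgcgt
Meis2 promoter, chr2:116064570-116064869, - strand: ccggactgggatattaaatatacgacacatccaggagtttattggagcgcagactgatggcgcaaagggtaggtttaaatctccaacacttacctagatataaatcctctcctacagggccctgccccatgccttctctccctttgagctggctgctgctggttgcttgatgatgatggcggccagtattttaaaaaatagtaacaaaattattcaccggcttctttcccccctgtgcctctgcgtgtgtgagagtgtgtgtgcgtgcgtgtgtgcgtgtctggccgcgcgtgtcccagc
The table holds another Pax6 window, chr2:105682213-105682512, with no match, and the one shown is the Pax6 window with the motif, held 1 time. The windows of Meis2, Slc32a1 and Tfap2b did not hold it. The motif was in 16.6% of 32851 windows of the table and in 29.6% of the 9300 genes tested below that had a window. It was in 28.2% of 259 genes higher in GABAergic amacrine nuclei than in glycinergic nuclei and in 31.7% of 167 genes lower there. The shares of both gene sets lay within a few percentage points of that of the tested genes.

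The nuclei had a median of 5712 UMIs (1141 to 35799) and 2527 genes, against a median of 1811 UMIs and 1042 genes for all kept nuclei. They lay in 4 ring-shaped pieces of tissue, whereas the labels describe 1 section of 1 eye. Piece 4 stood apart: Xist, the transcript that silences an X chromosome, had 19.8, 62.6, 22.9 and 937 CPM in pieces 1 to 4, and the Y-linked gene Uty 91.6, 86.6, 103 and 21.1 CPM. CPM are a gene's UMIs summed over a class of nuclei and scaled by the summed UMIs of all genes. These values go against 1 eye as the source of all pieces, so the main results are also given without piece 4. Pieces 1 to 4 held 157, 175, 185 and 104 of them, or 3.61, 4.11, 5.01 and 2.28% of the kept nuclei of each piece. All 17285 barcodes were distinct. No doublet caller was run here, so nuclei captured together remain. Of the 621 nuclei, 46 (7.41%) had 10 or more UMIs of 6 rod genes, 35 (5.64%) of 4 Müller glia genes, 19 (3.06%) of 6 bipolar genes, 9 of 5 vascular genes and 5 of 4 cone genes. The 46 nuclei held 82.2% of the rod UMIs. Of the starburst list no nucleus had 10 UMIs, and of the ganglion and RPE lists 1 nucleus each had them.

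**Figure D1:**
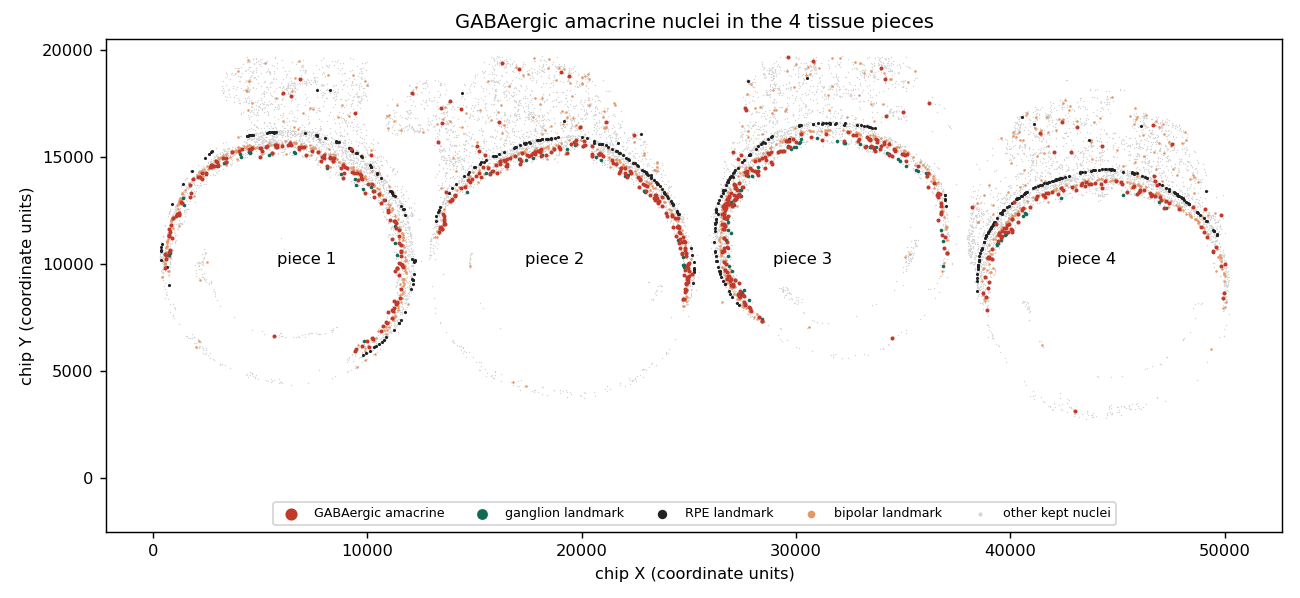
Chip map of the kept nuclei, in the coordinate units of the deposited positions, with GABAergic amacrine nuclei in red over bipolar, ganglion and retinal pigment epithelium (RPE) landmark nuclei and all others in grey. Most of the 621 nuclei trace the inner side of each ring of RPE nuclei, 549 of them in the retinal band, while some lie in tissue outside the rings.

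Counts of Gad1 and Gad2 chose the nuclei and are given as a description, since the nuclei were selected on them. Their sum ran from 4 to 29 UMIs, with a median of 7. Both genes were seen in 420 nuclei, Gad1 alone in 200 and Gad2 alone in 1. Pooled levels were 1074 CPM for Gad1 and 240 CPM for Gad2. The edge of the threshold was read among kept nuclei that met the other limits of the choice. Just inside, 95 such nuclei with 4 UMIs of Gad1 and Gad2 had 183 CPM of Slc32a1, 401 CPM of Tfap2b and 597 CPM of Pax6. Just outside, 119 such nuclei with 3 UMIs had 190 CPM of Slc32a1, 283 CPM of Tfap2b and 608 CPM of Pax6. The edge thus falls inside a continuous range. Of 900 kept nuclei with at least 4 Gad UMIs, 167 had over 1 UMI of Slc6a9, 131 of the cholinergic genes, 8 of Slc17a6 and 10 of Onecut1 and Lhx1.

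Markers that the choice did not use were present. Slc32a1, the vesicular transporter of GABA and glycine, stood at 223 CPM (209 to 239), with 206, 219, 238 and 232 CPM in pieces 1 to 4. Tfap2b, an amacrine transcription factor, stood at 488 CPM (466 to 511), and Pax6 at 602 CPM (578 to 627). In bipolar landmark nuclei, which do not use GABA as their transmitter, the levels were 8.26 CPM of Slc32a1, 36.5 CPM of Tfap2b and 99.7 CPM of Pax6. A UMI of Slc32a1 was found in 66.3% of GABAergic amacrine nuclei and 3.44% of bipolar nuclei, at median depths of 5712 UMIs in GABAergic amacrine and 3932 UMIs in bipolar nuclei. With every nucleus thinned to 1000 UMIs, the shares were 21.1% of GABAergic amacrine and 0.755% of bipolar nuclei. In trimmed glycinergic nuclei, defined below, the levels were 158 CPM of Slc32a1, 364 CPM of Tfap2b and 671 CPM of Pax6, and in starburst nuclei 155 CPM of Slc32a1 and 377 CPM of Pax6. By the rule of calls given below, no difference was called for these genes against trimmed glycinergic or starburst nuclei, while Slc32a1 and Tfap2b were called higher than in the glycinergic class before trimming. A Tfap2b UMI was in 70.5% of GABAergic amacrine and 84.1% of starburst nuclei, or 31.6% of GABAergic amacrine and 28.8% of starburst nuclei when thinned. The GABAergic label therefore rests on Gad1 and Gad2, which chose the nuclei.

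Other amacrine classes were set beside them: glycinergic nuclei (at least 4 UMIs of Slc6a9 and at most 1 of Gad1 and Gad2) and starburst nuclei (at least 4 UMIs of the cholinergic genes). The 672 glycinergic nuclei so chosen were mixed, since 135 had 2 or more UMIs of the RPE gene Rpe65 and 1 nucleus had 291939 UMIs. A trimmed class was therefore added after the values were seen, with at most 1 UMI of Rpe65 and of 3 myelin genes and under 1% of UMIs from rod genes. It held 517 nuclei, with a median of 4484 UMIs and a highest of 79817, and 19 of them were also bipolar landmark nuclei. Lists of other cells summed to 247 CPM in GABAergic and 536 CPM in trimmed glycinergic nuclei for bipolar genes, 590 CPM in GABAergic and 925 CPM in glycinergic nuclei for Müller glia genes, 75.5 CPM in GABAergic and 149 CPM in glycinergic nuclei for vascular genes, and 2.32 CPM in GABAergic and 21.8 CPM in glycinergic nuclei for astrocyte genes. Differences are named where both glycinergic classes gave them, and glycinergic levels below are those of the trimmed class. The 132 starburst nuclei had a median of 6490 UMIs. A gene was called when the lower 95% bound in the higher class came to 2 or more times the upper bound in the other, given at least 20 UMIs in 1 class; genes of the selection rules were left out.

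Of 11960 genes, 349 were called higher in GABAergic amacrine nuclei than in both glycinergic classes, a share of 2.92%, and 237 were called lower, 1.98%. Among these, 346 of the 349 and 217 of the 237 kept the direction in all 4 pieces. Leaving out, for each gene, the nucleus with most of its UMIs kept 317 and 159 of the calls. Against the glycinergic class as first chosen the counts were 834 (6.32%) higher and 1176 (8.91%) lower of 13201, and against the trimmed class alone 384 (3.21%) and 422 (3.53%). Without the 74 GABAergic nuclei that had 10 or more UMIs of another class's list, Müller glia aside, 389 were higher and 646 lower than in the trimmed class. Without piece 4, 363 genes were higher and 408 lower than in the trimmed class, and 724 and 1061 than in the class as first chosen. Against starburst nuclei 613 were then higher and 326 lower. The levels without piece 4 were 222 CPM of Slc32a1, 468 CPM of Tfap2b and 601 CPM of Pax6 in GABAergic nuclei, which made up 4.20% of kept nuclei. Without the 65 trimmed glycinergic nuclei that were bipolar landmarks or had 10 or more UMIs of a list of cells other than amacrine cells, Müller glia aside, 311 of the 349 higher and 146 of the 237 lower genes were called. Nfia, Nfib, Nfix, Prox1, Tcf4, Neurod2, Dscaml1 and Scn3a, picked after their values were seen, were not checked one by one in these settings. Among the other genes named below, calls of Elavl4, Gja1, Grin2a, Kcna1, Mfrp, Penk, Slc6a13 and Tfap2a against glycinergic nuclei were then lost. The call of Kcnq5 was lost without the 19 bipolar landmarks alone.

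The genes named here were those with the widest gap between intervals. Cemip, which takes part in hyaluronan breakdown, stood at 326 CPM (308 to 345) in GABAergic and 5.28 CPM (2.96 to 8.72) in glycinergic nuclei. C1ql2, a secreted C1q-like synaptic protein, had 162 CPM in GABAergic and 3.17 CPM in glycinergic nuclei. The matrix protein gene Tnc had 190 CPM in GABAergic and 8.10 CPM in glycinergic nuclei. The chemokine gene Cxcl14 had 190 CPM in GABAergic and 9.86 CPM in glycinergic nuclei. Frem3, a further matrix protein gene, had 22.9 CPM in GABAergic nuclei and no UMI among the 2838559 UMIs of glycinergic nuclei. The neuropeptide gene Vip had 28.1 CPM in GABAergic nuclei and likewise no glycinergic UMI. Tac2, the neurokinin B precursor, had 36.6 CPM in GABAergic and 0.705 CPM in glycinergic nuclei. Genes of receptors and their partners were also named. Cnih3, an accessory subunit of AMPA receptors, had 60.3 CPM in GABAergic and 1.06 CPM in glycinergic nuclei. Adra1b, the alpha-1B adrenergic receptor, had 38.9 CPM in GABAergic and 0.705 CPM in glycinergic nuclei. Mrap2, an accessory protein of melanocortin receptors, had 37.4 CPM in GABAergic and 0.705 CPM in glycinergic nuclei. The glycinergic levels of Tac2, Adra1b and Mrap2 rest on 2 UMIs each. Some of these genes were seen in few GABAergic nuclei. Of the 621 nuclei, 28 had a UMI of Frem3, 30 of Vip, 32 of Adra1b and 43 of Tac2, while 396 had one of Cemip. The 23 nuclei with 3 or more Tac2 UMIs held 118 of the 151 Adra1b UMIs and 67 of the 89 Frem3 UMIs. Klhl1, an actin-binding kelch protein gene, had 163 CPM in GABAergic and 6.34 CPM in glycinergic nuclei. Epb41l4a, of the band 4.1 family of membrane skeleton proteins, had 361 CPM in GABAergic and 20.1 CPM in glycinergic nuclei. Nav3, a neuron navigator, had 485 CPM in GABAergic and 31.0 CPM in glycinergic nuclei. Some of these genes were not low in every other amacrine class: Pde11a, a cyclic nucleotide phosphodiesterase, had 47.4 CPM in GABAergic, 0.705 CPM in glycinergic and 1339 CPM in starburst nuclei. Gad1os (ENSMUSG00000087264, chromosome 2, 70489940 to 70563357) overlaps Gad1 (70561303 to 70602014), whose UMIs chose the nuclei. The strand setting of the counting is unknown, so its 31.2 CPM in GABAergic nuclei are uncertain.

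Genes lower in GABAergic nuclei included Dab1, an adaptor of reelin signalling known from AII amacrine cells, a glycinergic type. Dab1 had 429 CPM (409 to 450) in GABAergic and 6126 CPM (6036 to 6218) in glycinergic nuclei. Spink13, which encodes a protease inhibitor, had 4.38 CPM in GABAergic and 585 CPM in glycinergic nuclei. Lgr5, a receptor of R-spondins, had 26.3 CPM in GABAergic and 560 CPM in glycinergic nuclei. Lamp5, a membrane protein of endosomes in neurons, had 13.1 CPM in GABAergic and 279 CPM in glycinergic nuclei. Among transporters and channels, Slc6a12, which carries betaine and GABA, had 0.773 CPM in GABAergic and 105 CPM in glycinergic nuclei. Kcnj5, an inward rectifier potassium channel, had 5.15 CPM in GABAergic and 117 CPM in glycinergic nuclei. Pkp1, a desmosome component, had 1.80 CPM in GABAergic and 126 CPM in glycinergic nuclei. Dnah11, an axonemal dynein, had 2.83 CPM in GABAergic and 78.2 CPM in glycinergic nuclei. The neurotensin receptor gene Ntsr1 had no UMI in GABAergic nuclei and 20.4 CPM in glycinergic nuclei. Tmem51 had 2.83 CPM in GABAergic and 76.4 CPM in glycinergic nuclei. Mfrp, a gene of the RPE, had 0.258 CPM in GABAergic and 26.1 CPM in glycinergic nuclei, while the RPE list summed to 14.4 CPM in GABAergic and 20.1 CPM in glycinergic nuclei. The 74 glycinergic UMIs of Mfrp lay in 9 nuclei, 1 of which held 62.2% of them.

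Against starburst nuclei, 624 of 11532 genes were higher (5.41%) and 335 lower (2.90%), and 619 and 320 kept the direction in all 4 pieces. Ptprk, a receptor tyrosine phosphatase, stood at 1241 CPM (1206 to 1276) in GABAergic and 27.2 CPM (17.4 to 40.5) in starburst nuclei. Csmd1, a complement regulator, had 1128 CPM in GABAergic and 26.1 CPM in starburst nuclei. Hs6st3, a heparan sulfate sulfotransferase, had 745 CPM in GABAergic and 15.9 CPM in starburst nuclei. Lingo2, a leucine-rich repeat membrane protein, had 1615 CPM in GABAergic and 58.9 CPM in starburst nuclei. Clmp, a cell adhesion protein, had 143 CPM in GABAergic and 1.13 CPM in starburst nuclei. Kif26b, of the kinesin family, had 275 CPM in GABAergic and 3.40 CPM in starburst nuclei. Insyn2b had 238 CPM in GABAergic and 3.40 CPM in starburst nuclei and Vwc2 had 275 CPM in GABAergic and 5.67 CPM in starburst nuclei. Other genes were lower than in starburst nuclei. Megf11, which takes part in the spacing of horizontal cells in the mouse, had 42.2 CPM in GABAergic and 3676 CPM in starburst nuclei. Frmd7, a gene of congenital nystagmus in humans, had 0.258 CPM in GABAergic and 120 CPM in starburst nuclei. Sox2ot, the transcript overlapping Sox2, had 17.0 CPM in GABAergic and 1746 CPM in starburst nuclei. Col25a1, a transmembrane collagen, had 39.4 CPM in GABAergic and 3187 CPM in starburst nuclei. The potassium channel Kcnk2 had 4.12 CPM in GABAergic and 349 CPM in starburst nuclei, and the related Kcnk12 had 1.03 CPM in GABAergic and 134 CPM in starburst nuclei. Hmga2, a chromatin protein gene, had 4.38 CPM in GABAergic and 416 CPM in starburst nuclei. Eya2, a transcriptional coactivator, had 9.27 CPM in GABAergic and 553 CPM in starburst nuclei, and Igfbp7, a secreted binding protein, had 4.38 CPM in GABAergic and 305 CPM in starburst nuclei. Against both glycinergic classes and starburst nuclei together, 183 genes were higher (1.59% of 11500) and 24 lower (0.209%).

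Of 33 measured transcription factors and other identity genes, 6 were higher and 9 lower than in glycinergic nuclei, beside 2.92 and 1.98% of all genes. The median ratio of the list was 0.897, beside 0.975 over all genes. Meis2 had 1149 CPM (1115 to 1183) in GABAergic, 92.7 CPM in glycinergic and 62.3 CPM in starburst nuclei. Its level in GABAergic nuclei was even over the pieces, at 1161, 1170, 1160 and 1069 CPM in pieces 1 to 4. A Meis2 UMI was in 81.5% of GABAergic, 15.7% of glycinergic, 16.7% of starburst and 22.7% of bipolar nuclei. Thinned to 1000 UMIs per nucleus, the shares were 59.3% of GABAergic, 4.47% of glycinergic, 1.52% of starburst and 8.63% of bipolar nuclei. Tfap2a, a relative of Tfap2b, had 285 CPM in GABAergic, 104 CPM in glycinergic and 162 CPM in starburst nuclei. Maf, a leucine zipper factor, had 104 CPM in GABAergic, 13.0 CPM in glycinergic and 9.07 CPM in starburst nuclei. Lhx9, a LIM homeodomain factor, had 44.8 CPM in GABAergic, 5.99 CPM in glycinergic and 3.40 CPM in starburst nuclei. Nr4a2, a nuclear receptor, had 31.9 CPM in GABAergic, 3.17 CPM in glycinergic and 4.53 CPM in starburst nuclei. Elavl4, an RNA-binding protein gene, had 93.0 CPM in GABAergic, 34.2 CPM in glycinergic and 11.3 CPM in starburst nuclei, and its call against glycinergic nuclei was lost without the nucleus with most UMIs. The factors that were lower belonged in part to shared families. Ebf1, a helix-loop-helix factor, had 28.3 CPM in GABAergic and 593 CPM in glycinergic nuclei, and its relative Ebf3 had 13.7 CPM in GABAergic and 441 CPM in glycinergic nuclei. The nuclear factor I genes were lower too. They, Prox1, Tcf4 and Neurod2 were picked after their values were seen. Nfia had 241 CPM in GABAergic and 887 CPM in glycinergic nuclei, Nfib had 55.1 CPM in GABAergic and 268 CPM in glycinergic nuclei and Nfix had 48.9 CPM in GABAergic and 366 CPM in glycinergic nuclei. Prox1 had 103 CPM in GABAergic and 867 CPM in glycinergic nuclei, Tcf4 had 232 CPM in GABAergic and 1345 CPM in glycinergic nuclei, and Neurod2 had 6.18 CPM in GABAergic and 86.0 CPM in glycinergic nuclei.

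The list of GABA synthesis and transport gave calls in both directions. Slc6a11, the transporter GAT3, had 702 CPM in GABAergic, 100 CPM in glycinergic and 272 CPM in starburst nuclei, and was called against both. Slc6a13, the transporter GAT2, was lower, with 0.515 CPM in GABAergic and 30.3 CPM in glycinergic nuclei, but 2 of the 10 glycinergic nuclei with a UMI held 89.5% of its 86 UMIs there. In all, 2 of 10 measured genes of the list were higher and 1 lower than in glycinergic nuclei, beside 2.92% higher and 1.98% lower of all genes, with a median ratio of 1.32 beside 0.975 over all genes. The GABA-degrading enzyme gene Abat, picked after its values were seen, had 209 CPM in GABAergic, 152 CPM in glycinergic and 20.4 CPM in starburst nuclei, and was called against starburst nuclei.

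**Figure D2:**
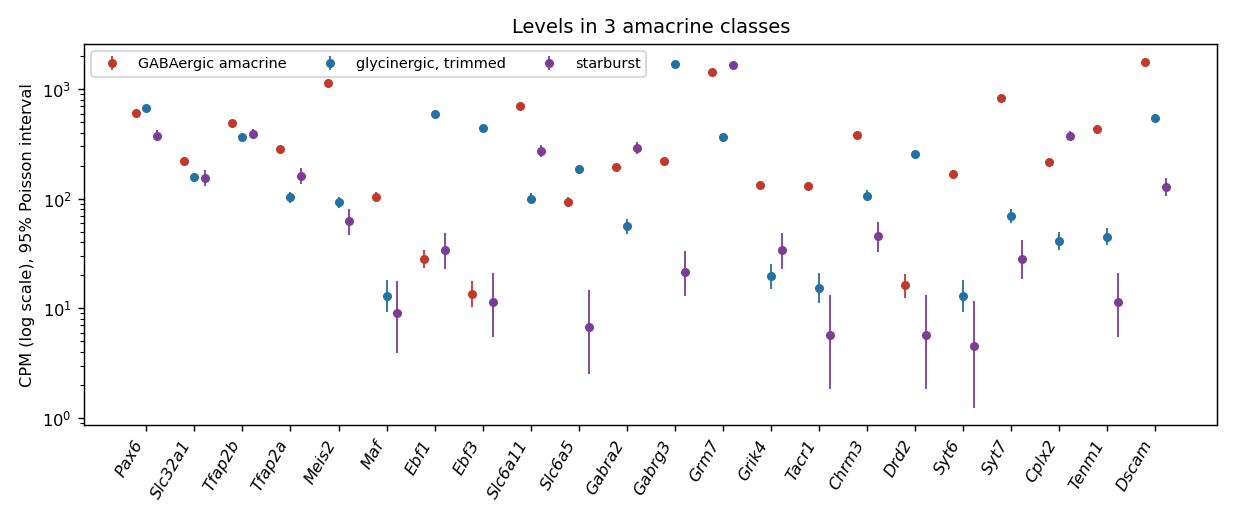
Pooled level in CPM on a log scale, with exact Poisson 95% intervals, of genes named in the text, in GABAergic amacrine, trimmed glycinergic and starburst nuclei. Meis2 stood at 1149 CPM in GABAergic amacrine nuclei with both other classes under 100 CPM, while Gabrg3, Ebf1 and Drd2 stood higher in glycinergic nuclei.

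Of 24 measured glutamate receptor genes, 7 were higher and 0 lower than in glycinergic nuclei, beside 2.92% higher and 1.98% lower of all genes. The median ratio was 1.21, beside 0.975 over all genes. Metabotropic receptors, which act through G proteins, were among them. Grm7 had 1440 CPM in GABAergic and 369 CPM in glycinergic nuclei. The related receptors Grm2 and Grm3 were higher than in glycinergic but lower than in starburst nuclei. Grm2 had 50.5 CPM in GABAergic, 5.28 CPM in glycinergic and 201 CPM in starburst nuclei. Grm3 had 44.3 CPM in GABAergic, 2.11 CPM in glycinergic and 226 CPM in starburst nuclei. The ion channel subunits called were a kainate and 2 NMDA receptor subunits. The kainate subunit gene Grik4 had 134 CPM in GABAergic and 19.7 CPM in glycinergic nuclei. The NMDA subunit gene Grin2a had 505 CPM in GABAergic and 201 CPM in glycinergic nuclei, and Grin2c had 18.0 CPM in GABAergic and 0.352 CPM in glycinergic nuclei. Against starburst nuclei, 9 of the 24 were higher and 4 lower, beside 5.41% higher and 2.90% lower of all genes. Of 8 measured acetylcholine receptor genes, 3 were higher and 0 lower than in glycinergic nuclei, beside 2.92% higher and 1.98% lower of all genes. The muscarinic receptor gene Chrm3 had 378 CPM in GABAergic and 106 CPM in glycinergic nuclei, and Chrm1 had 34.0 CPM in GABAergic and 5.99 CPM in glycinergic nuclei. The nicotinic subunit gene Chrnb3 had 81.4 CPM in GABAergic and 20.8 CPM in glycinergic nuclei.

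Of 24 measured GABA and glycine receptor genes, 2 were higher and 1 lower than in glycinergic nuclei, beside 2.92% higher and 1.98% lower of all genes, so the lower count is near that of all genes. The GABA-A subunit gene Gabra2 had 193 CPM in GABAergic and 56.0 CPM in glycinergic nuclei. Gabbr2, a GABA-B subunit gene, had 601 CPM in GABAergic and 240 CPM in glycinergic nuclei. The subunit gene Gabrg3 went the other way, with 220 CPM in GABAergic and 1710 CPM in glycinergic nuclei. Monoamine and peptide receptor genes gave 3 of 19 higher and 3 lower, beside 2.92% higher and 1.98% lower of all genes. Tacr1, the substance P receptor, had 131 CPM in GABAergic and 15.5 CPM in glycinergic nuclei. The serotonin receptor gene Htr2c had 56.2 CPM in GABAergic and 11.3 CPM in glycinergic nuclei. Sstr2, a somatostatin receptor, had 11.1 CPM in GABAergic and 0.352 CPM in glycinergic nuclei. The lower ones were receptors for dopamine and serotonin. Drd2 had 16.2 CPM in GABAergic and 254 CPM in glycinergic nuclei, Drd4 had 3.61 CPM in GABAergic and 44.0 CPM in glycinergic nuclei and Htr2a had 8.24 CPM in GABAergic and 95.8 CPM in glycinergic nuclei.

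Of 32 measured voltage-gated channel genes, 9 were higher and 0 lower than in both glycinergic classes, beside 2.92% higher and 1.98% lower of all genes. Against the trimmed class alone 11 were higher and 3 lower, beside 3.21% higher and 3.53% lower of all genes. The median ratio was 1.20, beside 0.975 over all genes. The potassium channel gene Kcnd2, of the A-type current, had 197 CPM in GABAergic and 28.5 CPM in glycinergic nuclei. Kcnc2, of fast-spiking neurons, had 556 CPM in GABAergic and 143 CPM in glycinergic nuclei. Kcna1 had 70.6 CPM in GABAergic and 23.3 CPM in glycinergic nuclei, and Kcnq5, of the M current, had 82.2 CPM in GABAergic and 27.1 CPM in glycinergic nuclei. Sodium and calcium channel genes made up the rest. The sodium channel gene Scn3b had 62.1 CPM in GABAergic and 9.16 CPM in glycinergic nuclei, and Scn3a, picked after its values were seen, had 116 CPM in GABAergic and 43.3 CPM in glycinergic nuclei. The calcium channel gene Cacna1a, of P/Q-type channels, had 962 CPM in GABAergic and 335 CPM in glycinergic nuclei. Cacna1e, of R-type channels, had 188 CPM in GABAergic and 59.2 CPM in glycinergic nuclei, and Cacna1i, of T-type channels, had 335 CPM in GABAergic and 110 CPM in glycinergic nuclei. Genes of synaptic release gave 4 higher and 1 lower of 25, beside 2.92% higher and 1.98% lower of all genes. The calcium sensor gene Syt7 had 838 CPM in GABAergic and 70.1 CPM in glycinergic nuclei, and Syt6 had 168 CPM in GABAergic and 13.0 CPM in glycinergic nuclei. The complexin gene Cplx2 had 215 CPM in GABAergic and 41.6 CPM in glycinergic nuclei. Rims1, of the active zone, had 421 CPM in GABAergic and 181 CPM in glycinergic nuclei. Sv2b, a vesicle protein gene, was lower, with 76.8 CPM in GABAergic and 343 CPM in glycinergic nuclei.

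Adhesion genes that guide neurites to sublayers gave 8 of 36 higher and 1 lower than in glycinergic nuclei, beside 2.92% higher and 1.98% lower of all genes. The lower count is near that of all genes, and the median ratio was 1.38, beside 0.975 over all genes. Among them were genes of teneurins, which bind across synapses. Tenm1 had 429 CPM in GABAergic and 45.1 CPM in glycinergic nuclei. Tenm3 had 1108 CPM in GABAergic and 283 CPM in glycinergic nuclei, and Tenm4 had 2883 CPM in GABAergic and 1260 CPM in glycinergic nuclei. Sema6a, a transmembrane semaphorin, had 520 CPM in GABAergic and 96.5 CPM in glycinergic nuclei, and the semaphorin receptor gene Plxna4 had 394 CPM in GABAergic and 126 CPM in glycinergic nuclei. The cadherin gene Cdh4 had 795 CPM in GABAergic and 205 CPM in glycinergic nuclei. Cntnap5a, of the neurexin-like family, had 202 CPM in GABAergic and 49.3 CPM in glycinergic nuclei. The immunoglobulin adhesion gene Dscam and its relative Dscaml1 went opposite ways. Dscam had 1754 CPM in GABAergic and 551 CPM in glycinergic nuclei. Dscaml1, picked after its values were seen, had 551 CPM in GABAergic and 3011 CPM in glycinergic nuclei. Peptide processing gave 2 of 13 higher and 0 lower, beside 2.92% higher and 1.98% lower of all genes: the convertase gene Pcsk1 had 32.5 CPM in GABAergic and 2.11 CPM in glycinergic nuclei, and Vgf, of dense-core vesicles, had 202 CPM in GABAergic and 47.2 CPM in glycinergic nuclei. Slc18a2, the vesicular monoamine transporter, was the 1 gene called, as higher, of 8 measured in the monoamine and nitric oxide list. Of all genes, 2.92% were called higher and 1.98% lower. It had 13.1 CPM in GABAergic nuclei and no glycinergic or starburst UMI. Of 5 measured gap junction genes 0 were higher and 1, Gja1, was lower, beside 2.92% higher and 1.98% lower of all genes. Gja1 had 3.35 CPM in GABAergic and 27.5 CPM in glycinergic nuclei. That glycinergic level rests on 78 UMIs in 8 nuclei, and 2 of these nuclei held 76.9% of them. Thinned to 1000 UMIs, Gja1 turned to 0.99 higher on the log2 scale. Of 11 measured calcium-binding protein genes, none was called against both glycinergic classes, beside 2.92% higher and 1.98% lower of all genes. Their median ratio was 0.485, beside 0.975 over all genes. Against the trimmed class alone 4 were lower and 0 higher, beside 3.53% lower and 3.21% higher of all genes. Against starburst nuclei 1 of 10 was higher and 4 lower, beside 5.41% higher and 2.90% lower of all genes. Of 5 immediate early genes none was called against either glycinergic class (median ratio 1.09). Of these 5 genes, 1 was higher than in starburst nuclei, beside 5.41% of all genes.

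Genes for peptides and minor transmitters marked small sets of the nuclei. At least 3 UMIs of any of 23 such genes were in 100 nuclei, or 16.1% (13.3 to 19.2%), and 17 nuclei had them for 2 or more genes. The share was 14.6, 18.3, 16.2 and 14.4% in pieces 1 to 4. With 3 or more UMIs, Cartpt, the CART peptide precursor, was in 33 nuclei (5.31%), Nos1, neuronal nitric oxide synthase, in 24 (3.86%), Tac2 in 23 (3.70%), Tac1, the substance P precursor, in 14 (2.25%), Vip in 13 (2.09%) and Npy, neuropeptide Y, in 8 (1.29%). Pdyn, the dynorphin precursor, was in 2 nuclei and Slc17a8, the glutamate transporter VGLUT3, in 1. The other 15 genes reached 3 UMIs in no nucleus, which allows up to 0.483% of nuclei with 3 UMIs for each (3 counts of 621) and sets no limit on nuclei that express the gene at a lower level. Among them Sst, Nppb, Trh, Pnoc, Nts, Ucn and Ucn3 had no UMI, and Th, the enzyme of dopamine synthesis, had 6 UMIs in 5 nuclei. Cck, Crh, Penk, Gal, Adcyap1, Grp and Nmb had 7, 6, 8, 1, 1, 8 and 14 UMIs.

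As pooled levels, 5 of the 10 subtype genes measured were higher than in glycinergic nuclei and 2 lower, beside 2.92% higher and 1.98% lower of all genes. Cartpt had 151 CPM in GABAergic and 21.8 CPM in glycinergic nuclei. Tac1 had 30.9 CPM in GABAergic and 2.11 CPM in glycinergic nuclei. Npy was higher than in glycinergic but lower than in starburst nuclei, with 15.5 CPM in GABAergic, 2.82 CPM in glycinergic and 66.9 CPM in starburst nuclei. Slc17a8 was lower, with 4.38 CPM in GABAergic and 91.2 CPM in glycinergic nuclei, as was Penk, the enkephalin precursor, with 2.06 CPM in GABAergic and 26.4 CPM in glycinergic nuclei. Calls for Npy and Penk were lost without the nucleus with most of their UMIs. A single nucleus of 12042 UMIs in piece 2 held 187 of the 587 Cartpt UMIs (31.9%), and without it Cartpt stood at 103 CPM in GABAergic nuclei. Of the 23 nuclei with Tac2, 8 (34.8%) were among the 24 with Nos1, where they made up 33.3%, and 4 (17.4%) were among the 14 with Tac1, where they made up 28.6%. No nucleus with Cartpt was in either the Tac2 or the Nos1 set.

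**Figure D3:**
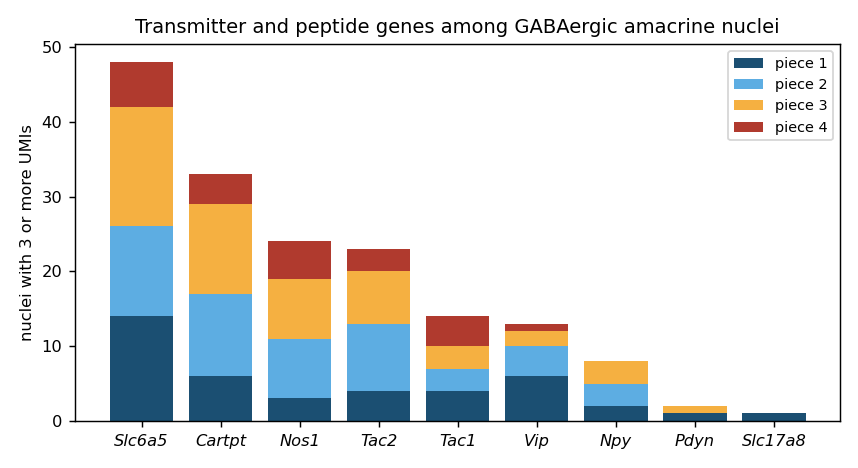
Number of GABAergic amacrine nuclei with 3 or more UMIs of each gene, stacked by tissue piece. Slc6a5 reached 48 nuclei, Cartpt 33, Nos1 24, Tac2 23, Tac1 14 and Vip 13, and each of these had nuclei in all 4 pieces.

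The 33 nuclei of the Cartpt set were set beside the other GABAergic amacrine nuclei. Of 11267 genes, 144 (1.28%) were higher in them and 94 (0.834%) lower, and 56 of the 144 calls held without the nucleus with most UMIs of the gene. Kit, a receptor tyrosine kinase, had 601 CPM (509 to 705) in the Cartpt set and 2.20 CPM in the other nuclei. A Kit UMI was in 26 of the 33 nuclei and in 0.680% of the others. Alk, another receptor tyrosine kinase, had 2560 CPM in the Cartpt set and 143 CPM in the other nuclei. The calls given here for this set all held. The vesicle protein gene Sv2c had 713 CPM in the Cartpt set and 34.1 CPM in the other nuclei, and the synaptic protein gene Elfn1 had 251 CPM in the Cartpt set and 22.6 CPM in the other nuclei. In the Tac2 set of 23 nuclei, 82 genes were higher (0.723% of 11335) and 126 lower (1.11%), and 56 of the 82 held. Adra1b had 574 CPM in the Tac2 set and 8.98 CPM in the other nuclei. Frem3 had 326 CPM in the Tac2 set and 5.98 CPM in the other nuclei. Cdhr1, a cadherin-related gene, had 379 CPM in the Tac2 set and 16.3 CPM in the other nuclei. A UMI of Adra1b was in 16 of the 23 nuclei and in 2.68% of the others, and a UMI of Frem3 in 19 of the 23 and in 1.51% of the others. Pde11a had 428 CPM in the Tac2 set and 26.1 CPM in the other nuclei, and Kcnq5 had 608 CPM in the Tac2 set and 52.8 CPM in the other nuclei.

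The Nos1 set of 24 nuclei had 46 genes higher (0.406% of 11341) and 59 lower (0.520%) than the other nuclei, and 25 of the 46 held. It shares 8 nuclei with the Tac2 set, so its values are not separate evidence. Frem3 had 255 CPM in the Nos1 set and 10.3 CPM in the other nuclei. Adra1b had 370 CPM in the Nos1 set and 20.9 CPM in the other nuclei, and Cdhr1 had 220 CPM in the Nos1 set and 25.5 CPM in the other nuclei. The RNA-binding protein gene Elavl2 had 635 CPM in the Nos1 set and 67.1 CPM in the other nuclei, and Tac2 had 255 CPM in the Nos1 set and 24.7 CPM in the other nuclei. A further set, added after values were seen, was the 48 nuclei (7.73%) with 3 or more UMIs of Slc6a5, the neuronal glycine transporter GlyT2, a gene the choice of nuclei did not use. Slc6a5 had 94.3 CPM in GABAergic, 187 CPM in glycinergic and 6.80 CPM in starburst nuclei. A UMI of it was in 24.8% of GABAergic, 48.5% of glycinergic, 3.03% of starburst and 1.29% of bipolar nuclei. Thinned to 1000 UMIs, the shares were 6.92% of GABAergic, 17.3% of glycinergic and 0.108% of bipolar nuclei. The GABAergic share thus lay between those of the glycinergic and the bipolar nuclei. In the Slc6a5 set 56 genes were higher than in the other nuclei (0.497% of 11269) and 100 lower (0.887%), and 29 of the 56 held. Olfm3, an olfactomedin gene, had 1068 CPM in the Slc6a5 set and 156 CPM in the other nuclei. Kif26b had 1099 CPM in the Slc6a5 set and 198 CPM in the other nuclei. Gsg1l, an AMPA receptor accessory gene, had 382 CPM in the Slc6a5 set and 62.3 CPM in the other nuclei. The other named genes of the set were an enzyme and a transporter gene. P3h2, a collagen prolyl hydroxylase, had 542 CPM in the Slc6a5 set and 102 CPM in the other nuclei. Slc24a2, a sodium-calcium exchanger, had 728 CPM in the Slc6a5 set and 178 CPM in the other nuclei.

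Counts of single genes varied widely among the nuclei. Genes were ranked by the variance of their UMIs over the mean after values were seen. Over 9782 genes seen in at least 5% of nuclei the median of variance over mean was 1.13. It was 65.7 for Cartpt, 51.2 for Kirrel3, an adhesion gene with a UMI in 51.7% of nuclei, 39.9 for Kcnip4, 36.3 for Asic2 and 33.4 for Nrg1, whose UMIs were in 70.4%. Trpm1, a bipolar cell gene, was at 44.8.

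Position on the chip played no part in the choice. The retinal band, set after the map was seen, held 549 of the 621 nuclei (88.4%). It held 82.4% of trimmed glycinergic, 92.4% of starburst and 69.8% of bipolar landmark nuclei. The median distance to the 5 nearest RPE landmark nuclei was 629 coordinate units in the band for GABAergic amacrine nuclei, 606 for glycinergic nuclei, 752 for starburst nuclei, 755 for ganglion landmark nuclei and 505 for bipolar landmark nuclei. In pieces 1 to 4 the median in the band was 809, 556, 556 and 608 units for GABAergic amacrine nuclei. For glycinergic nuclei it was 793, 531, 507 and 594 units, smaller in each piece. Over all nuclei, in the band or not, the median was 659 units for GABAergic, 664 for glycinergic and 642 for bipolar nuclei. In piece 1 it was 815.3 for GABAergic and 820.5 for glycinergic nuclei, and in pieces 2 to 4 the GABAergic median stayed larger. The order of GABAergic and glycinergic nuclei thus depended on the band. How long a unit is was not stated.

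**Figure D4:**
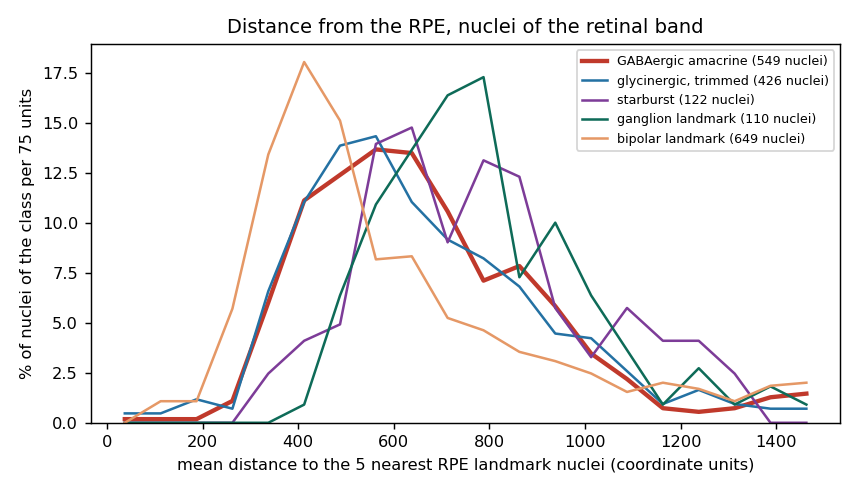
Share of the nuclei of each class per 75 coordinate units of distance to the RPE, for nuclei in the retinal band. The curve of GABAergic amacrine nuclei (median 629 units) lies near that of glycinergic nuclei (606) and between bipolar (505) and ganglion nuclei (755).

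Neighbours were counted by class. Among the 20 nearest nuclei, ganglion landmarks made up 16.1% of ganglion plus bipolar landmarks around GABAergic amacrine nuclei (215 ganglion and 1123 bipolar neighbours), 5.96% around glycinergic nuclei (68 ganglion and 1073 bipolar) and 30.6% around starburst nuclei (92 ganglion and 209 bipolar). In pieces 1 to 4 the share was 8.41, 17.1, 24.2 and 10.0% for GABAergic amacrine nuclei and 5.07, 7.08, 7.26 and 3.85% for glycinergic nuclei, higher for the GABAergic nuclei in each of the 4 pieces. Within the GABAergic nuclei, the share was 64.3% around the Tac2 set (27 ganglion and 15 bipolar neighbours), 54.8% around the Tac1 set (17 and 14), 34.9% around the Nos1 set (22 and 41), 31.8% around the Npy set (7 and 15), 18.9% around the Slc6a5 set, 16.7% around the Vip set (5 and 25) and 15% around the Cartpt set (9 and 51). Sets that share nuclei also share neighbours. GABAergic amacrine nuclei had neighbours of their own class 2.84 times as often as its share of kept nuclei, glycinergic neighbours 2.93 times, starburst neighbours 3.19 times, bipolar neighbours 1.64 times and RPE neighbours 0.127 times.

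**Figure D5:**
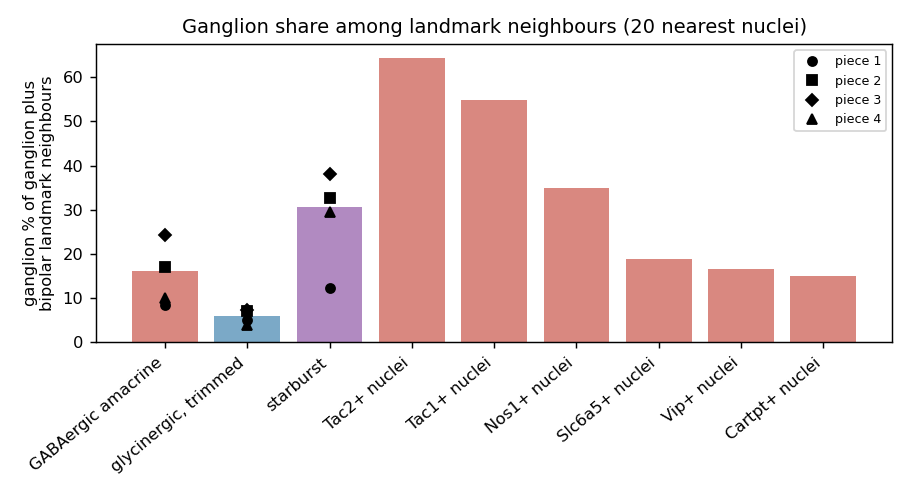
Ganglion landmarks as a percentage of ganglion plus bipolar landmarks among the 20 nearest nuclei, as bars over all pieces, with the 4 pieces as points for the 3 classes. Values were 16.1% for GABAergic amacrine, 5.96% for glycinergic and 30.6% for starburst nuclei, and 64.3% for nuclei with Tac2.

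The pieces, which the labels do not name, were compared as values side by side. Of 8352 genes, 25 (0.299%) were called between the highest and the lowest piece. Of these, 8 held without the nucleus with most UMIs of the gene: Xist, Uty, Egr1, Ankfn1, Nxph1, Gpc5, Gm13986 and Pappa2, named here after their values were seen. A Xist UMI was in 7, 11, 10 and 90 nuclei of pieces 1 to 4, and a Uty UMI in 62, 73, 77 and 7. Piece 4 was thus apart from the other pieces on both genes. Egr1, an immediate early transcription factor, had 8.32, 42.9, 51.0 and 170 CPM in pieces 1 to 4. Pappa2, a protease of IGF-binding proteins, had 78.0, 11.1, 32.5 and 30.8 CPM. Gpc5, a glypican, had 45.8, 30.9, 6.16 and 81.0 CPM, but in 14, 15, 7 and 7 nuclei, and 1 nucleus held 38.0% of its piece 4 UMIs. Gm13986 had 10.4, 34.3, 40.5 and 89.1 CPM. Xist, Egr1, Nxph1, Gpc5 and Gm13986 were thus highest in piece 4, and all of these but Gpc5 were lowest in piece 1. Ankfn1 and Pappa2 were highest in piece 1 and Uty in piece 3. Nxph1, a neurexin ligand, had 18.7, 52.3, 27.3 and 303 CPM, but in 4, 9, 5 and 8 nuclei. Rod list genes summed to 548, 411, 411 and 980 CPM in GABAergic nuclei of pieces 1 to 4, and their part in these calls was not tested. For the other genes called between pieces, genotype, animal and place in the eye cannot be told apart without labels for the pieces.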

How the data were processed

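The authors deposited UMI counts of genes by barcode from 1 expression library, 55843593 UMIs over 17285 barcodes, not normalised. Positions were deposited in other units, as chip coordinates of unknown length. Per the submitters' processing notes, the tools were Seurat 4.1.1, STAR and fastp, with the build mm10. What each tool did, the annotation, strand setting, intron counting and cell calling are not stated in the labels. Both samples have no group, so no comparison of groups and no test was made. Tools were scipy 1.17.1, numpy 2.4.6, matplotlib 3.10.9 and pandas 2.3.3 under Python 3.11.15.

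Members and lists were chosen with earlier results of these data known. Kept nuclei had at least 200 genes and under 10% mitochondrial UMIs. Levels were UMIs pooled over a class as CPM with exact Poisson 95% intervals, and shares had exact (Clopper-Pearson) binomial 95% intervals. Named genes were the 5 markers, all subtype genes, up to 8 called genes per list, the 15 genes of largest bound ratio per direction against glycinergic and 10 against starburst nuclei with at least 50 UMIs, 5 per subtype set of at least 15 nuclei and 10 between pieces. Landmarks were ganglion (Slc17a6 at least 4 UMIs), bipolar (5 genes together at least 4) and RPE (Rpe65 at least 3). Piece borders, the retinal band (under 1500 units), the trimmed class and the Slc6a5 set were chosen after seeing the data. RefSeq tables matched 26335 of 32285 features by symbol. Alternatives varied thresholds, thinning, totals and neighbours. Some genes that the naming rule picked are not reported here.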

Additional observations from a re-analysis of the deposited data

How the results depend on the processing

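No paired analysis was possible because GEO's labels give neither library a group. Of 104 alternative values of 11 results, 75 stayed within the set limits and 29 moved. The share of nuclei was 4.39% at a Gad minimum of 3, 2.58% at 6, 4.24% of nuclei with at least 500 genes, 2.75% with 0 UMIs of the excluding genes and 4.20% without piece 4, whose other 9 values stayed within the limits. Tfap2b stood at 465 and 526 CPM at those minimums, 452 CPM thinned to 1000 UMIs and 511 CPM without mitochondrial genes and Gm42418. Slc32a1 stood at 246 CPM thinned, and Pax6 at 630 CPM without those genes and 633 CPM as a mean over nuclei. Thinned, calls numbered 574 against glycinergic, 361 against starburst and 358 against trimmed glycinergic nuclei and 3 between pieces, and 2.09% of nuclei had a subtype gene. At 1.5-fold, 1261 genes were called against trimmed glycinergic nuclei and 72 between pieces, and at 3-fold 1172 against glycinergic, 572 against starburst, 414 against trimmed glycinergic nuclei and 9 between pieces. The trimmed class gave 806 calls in place of 2010. Between pieces 8 calls were left without the nucleus with most UMIs. The median distance over all GABAergic amacrine nuclei, in the band or not, was 1181 units with 20 RPE nuclei, against 659 with 5. The ganglion share was 19.5% with 10 neighbours. A subtype gene at 2 or 5 UMIs was in 22.1 and 11.1% of nuclei. For 108 ratios of named genes, 1112 of 1168 alternatives kept the call, 55 lost it and 1 turned: Gja1 against trimmed glycinergic nuclei, 0.99 on the log2 scale when thinned. The causes were not tested, but thinning by construction leaves fewer UMIs. With 1 library, the spread between animals is unknown.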
